A study of Caenorhabditis elegans with 15 samples.

Results

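A crude plant extract and the procyanidin fraction prepared from it were compared at the same stated concentration by whole-transcriptome arrays of treated *Caenorhabditis elegans*. The comparison took 6 of the 15 arrays of the experiment, chosen by their titles: 3 arrays of worms given the crude extract (RE) and 3 arrays of worms given fraction H3 at 0.2 mg/mL (H3 0.2), over all 29317 probe sets. RE is an extract of *Combretum mucronatum* leaves made with 50% ethanol. Fraction H3 was obtained from that extract by partition and chromatography, and per the study's methods it consists of oligomeric procyanidins built from epicatechin units. The titles of the RE arrays and the methods give 0.2 mg/mL, whereas the treatment field of the same samples gives 2 mg/mL. Whether the doses match therefore cannot be settled from these sources, and RE was also set beside H3 at 2 mg/mL (H3 2).

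Each of the 5 groups had 3 arrays, which the methods describe as 3 independent replicates: the negative control without plant material (NK), H3 0.02, H3 0.2, H3 2 and RE. All worms were wild-type N2 young adults kept for 6 h at 20 °C in M9 buffer that held DMSO as solubiliser, the control included. RNA was taken from whole worms pooled per flask, and the arrays were of the Affymetrix type C. elegans Gene 1.0 ST. Each value is a level on the log2 scale after robust multi-array averaging (RMA), so that a difference of 1 is a 2-fold difference.

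Procyanidins are condensed tannins, chains of flavan-3-ol units that bind proteins, with a particular affinity for proline-rich ones. A plant extract holds many other compounds beside them, which a worm can meet with cytochromes P450, UDP-glucuronosyltransferases, glutathione S-transferases and ABC transporters. The comparison asks which transcripts took another level with the crude extract than with the procyanidins alone.

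The numbers of the replicates paired the arrays. By the sign of the first principal component (52.0% of the variance) the 15 arrays fell into a set of 8 and a set of 7. Replicate 1 of RE and of H3 0.2 was in the first set (A) while replicates 2 and 3 of both were in the second (B), so that a difference in pair 1 is the value within set A and pairs 2 and 3 give the values within set B. Groups and sets are thus balanced in RE against H3 0.2, and the set as a block leaves each difference as it is. Each RE array was closest to the H3 0.2 array of its own number. The root mean square difference was 0.33 to 0.35 log2 units for these 3 pairs, 0.41 to 0.42 for arrays of 1 treatment within set B and 0.62 to 0.69 for arrays of 1 treatment across the sets. Within the pairs, 401 to 463 probe sets lay 2-fold or more apart, and across the sets 2605 to 3500 did within a treatment. Component 3 (5.25% of the variance) set replicate 3 of both groups apart from the others.

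**Figure D1:**
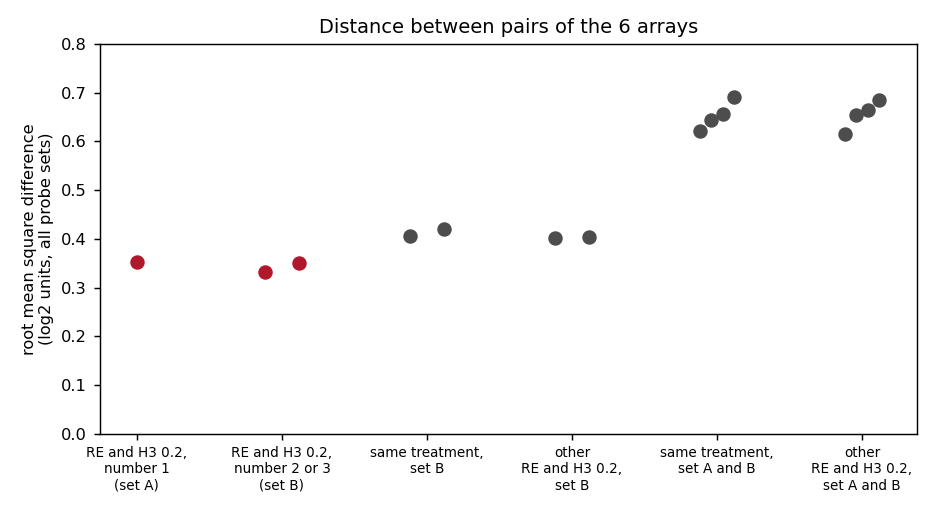
Root mean square difference in log2 units over 29317 probe sets (vertical axis) for the 15 pairs that the 3 RE and 3 H3 0.2 arrays form, grouped by treatment, number and array set (A or B). Red points are RE and H3 0.2 arrays of the same number, which lie at 0.33 to 0.35, below every other pair (0.40 to 0.69).

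No probe set differed between RE and H3 0.2 by the rule used for a call, a 2-fold difference with a Benjamini-Hochberg adjusted p of 0.05 or less from limma (0 of 29317, 0%), and none reached that adjusted p at any fold. At an unadjusted p under 0.05, 263 probe sets had the higher mean with RE (0.897% of those tested) and 389 the lower mean (1.33%). Together these were 652 (2.22%), a smaller share than a threshold of 0.05 would give with no difference at all. With the array set as a block, 1190 had such a p. The methods' test, a one-way analysis of variance with Fisher's least significant difference, also gave 0 calls. It had 784 probe sets at an unadjusted p under 0.05. Each treatment differed from the control by the same rule: against NK, 117 probe sets rose and 157 fell with RE (0.399% and 0.536%), and 135 rose and 188 fell with H3 0.2 (0.46% and 0.641%). These comparisons share the control arrays.

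A p that misses the threshold does not show that the treatments acted alike, so the 95% confidence intervals of RE minus H3 0.2 were counted. They are not adjusted for the number of probe sets. For 24398 probe sets (83.2%) the interval lay wholly between −1 and 1, that is, within a 2-fold difference either way. For 4919 (16.8%) it reached past 1, and 1 interval, that of *Y38H6A.1*, lay wholly above 1. With the replicate number as a block, which uses the pairing, 2868 intervals (9.78%) reached past 1. Blocking on the array set left 1364 (4.65%), and under each of these fits those of *Y38H6A.1* and *T22D1.21* lay wholly above 1. The replicate number as a block on the 6 arrays alone, which pairs RE with H3 0.2, gave 920 (3.14%). The median distance from the difference to either end of its interval was 0.46 (quartiles 0.35 and 0.66). The differences themselves were small: 97.8% were under 0.5 in size, and the central 95% of them ran from −0.40 to 0.38. For comparison, the median SD over the 3 arrays was 0.23 for RE and 0.25 for H3 0.2.

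Differences of 1 or more numbered 40, with RE higher in 26 and lower in 14. Of the 40, 24 (60%) had a mean level at or below the array medians, where 49.9% of all probe sets did, and 10 were assigned to 1 named gene each. Among the genes with the 10 smallest p-values and the lower mean with RE, all 10 lay between 1.27 and 3.31, below the array medians, which were close to 3.59. Of the 10 with the higher mean in RE, 5 lay above that level.

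**Figure D2:**
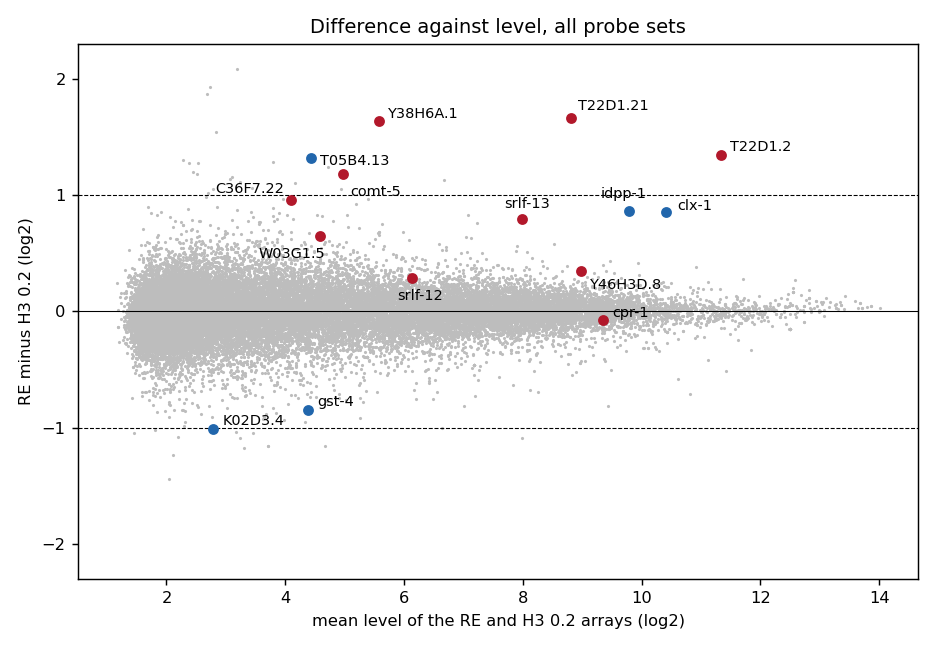
Difference RE minus H3 0.2 (log2, vertical axis) against the mean level of the 6 arrays (log2, horizontal axis) for 29317 probe sets, with dashed lines at −1 and 1. Red points are the genes that differed between H3 2 and H3 0.02, and blue points are others named in the text. *T22D1.2*, *T22D1.21* and *Y38H6A.1* lie at 1.35, 1.67 and 1.64, whereas most probe sets of their level lie close to 0.

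Several genes whose mean climbed with the concentration of H3 had the higher mean with RE, although none passed the adjusted threshold. *Y38H6A.1*, an uncharacterised protein-coding gene on chromosome V, had the smallest p of all probe sets. Its level was 6.42, 6.68 and 6.08 in the RE arrays of replicates 1, 2 and 3, and 4.58, 5.14 and 4.56 in the H3 0.2 arrays. The groups did not overlap, and RE was higher in 3 of 3 numbered pairs, by 1.84, 1.55 and 1.52. The difference was 1.64 (interval 1.18 to 2.09), a fold of 3.11, with an unadjusted p of 3.91e-06 and an adjusted p of 0.115 from limma. Its mean was 2.52 ± 0.14 (SD, n = 3) in the control, 4.04 with H3 0.02, 6.25 ± 0.35 with H3 2 and 6.39 ± 0.30 with RE. Against NK the difference was 3.87 for RE (adjusted p = 5.12e-07, limma) and 2.24 for H3 0.2 (adjusted p = 0.000112).

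Such graded genes were described without using the means of RE and H3 0.2. The probe sets taken were those that differed between H3 2 and H3 0.02, a choice made after the data had been seen. These were 9 that rose (0.0307% of those tested) and 2 that fell (0.00682%), all of which had also passed for H3 2 against NK. All 9 had a higher mean with RE than with H3 0.2, where 48.1% of all probe sets did. The median of their differences was 0.96, against −0.01 over all probe sets. The 3 RE arrays lay above the 3 H3 0.2 arrays for 7 of the 9, where 2.36% of all probe sets did, and the interval lay above 0 for those 7. The choice was not free of these arrays, because the fit took its spread from all groups. A small spread in the RE and H3 0.2 arrays helps a probe set to be chosen. It also makes groups that lie apart and intervals clear of 0 more likely. RE was higher in all 3 pairs for 8 of the 9, where 11% of all probe sets were. Without replicate 1 of both groups the count with the higher mean was 8 of 9, and it stayed at 9 when any other replicate number or any single array of these groups was left out, with medians from 0.85 to 1.06 (alternatives chosen after seeing the data). None of the 9 passed the adjusted threshold. In the fit without a block, the smallest adjusted p after that of *Y38H6A.1* was 0.846 for *C36F7.22* (limma). Over the alternative fits that left no replicate out, the smallest adjusted p was 0.0709 for *T22D1.21* and 0.2 for *C36F7.22* (limma). For *Y38H6A.1* it was 0.0702, and for the rest it was 0.735 or more.

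*T22D1.2* encodes a proline-rich protein. It stood at 12.26, 12.03 and 11.74 with RE and at 11.23, 10.71 and 10.05 with H3 0.2. The difference was 1.35 (0.30 to 2.4, unadjusted p = 0.016 and adjusted p = 1 from limma). The non-coding RNA gene *T22D1.21*, on chromosome IV, had the widest gap of the 9 at 1.67 (0.83 to 2.5), with 9.96, 9.68 and 9.29 for RE and 8.72, 7.97 and 7.24 for H3 0.2. In both genes each RE array was above every H3 0.2 array, and the gap was largest in pair 3 (1.70 and 2.05). Both genes carry the sequence name T22D1, and their pair differences ran in parallel. These were 1.03, 1.32 and 1.70 for *T22D1.2*, and 1.24, 1.71 and 2.05 for *T22D1.21*. Whether their probe sets read separate transcripts was not tested, so the 9 may hold fewer independent members.

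*comt-5*, named as a catechol-O-methyltransferase, a class of enzymes that methylate catechols, had 5.58, 5.51 and 5.58 with RE and 4.21, 4.64 and 4.28 with H3 0.2. The RE arrays agreed within 0.04 (SD), and the difference was 1.18 (0.58 to 1.78). The non-coding RNA gene *C36F7.22* gave 4.67, 4.69 and 4.39 against 3.81, 3.65 and 3.42, a difference of 0.96 (0.61 to 1.31). Its mean with H3 0.02 (3.07) was close to that of the control (3.06), and its mean with H3 2 was 4.88 ± 0.15. *W03G1.5* gave 5.12, 4.93 and 4.69 with RE and 4.21, 4.38 and 4.21 with H3 0.2, a difference of 0.65 (0.33 to 0.97). In all 3 genes the groups did not overlap and RE was higher in every pair.

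Of the *srlf* genes *srlf-12*, *srlf-13* and *srlf-14*, neighbours on chromosome IV in the RefSeq annotation, *srlf-13* had the interval above 0. Its level was 8.83, 8.23 and 8.11 with RE and 7.65, 7.47 and 7.68 with H3 0.2, a difference of 0.79 (0.27 to 1.32). *srlf-12* differed by 0.29 (−0.16 to 0.74) and *srlf-14* by 0.39 (−0.18 to 0.95), and their groups overlapped. The last of the 9 genes that rose, *Y46H3D.8*, differed by 0.35 (−0.21 to 0.91), and its pairs went in both directions (1.16, 0.22 and −0.33). One of the 2 probe sets that fell was *cpr-1*, a cathepsin B-type cysteine peptidase, and it stood at 9.32 ± 0.18 with RE and 9.39 ± 0.20 with H3 0.2 (difference −0.08, −0.45 to 0.29). The other, shared by *F35E8.13* and *F35E8.10*, which cannot be told apart, stood at 3.08 and 3.35 (difference −0.26, −0.80 to 0.27).

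For these graded genes the RE means lay nearer to H3 2 than to H3 0.2 in most cases. Over the 9 genes, RE minus H3 2 had a median of −0.30 and ranged from −0.58 (*T22D1.21*, −1.41 to 0.26) to 0.14 (*Y38H6A.1*, −0.32 to 0.60). RE was nearer to H3 2 for 8 of the 9, where it was for 11456 of all 29317 probe sets. RE and H3 2 are not balanced over the array sets, and with the set as a block the median was −0.15 and the range −0.37 to 0.11. The count was then 9 of 9, where it was 13711 of all 29317. The H3 2 arrays took part in choosing these genes, which favours high levels there. For *cpr-1* RE lay 0.72 above H3 2 (0.35 to 1.09), at the level of H3 0.2.

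**Figure D3:**
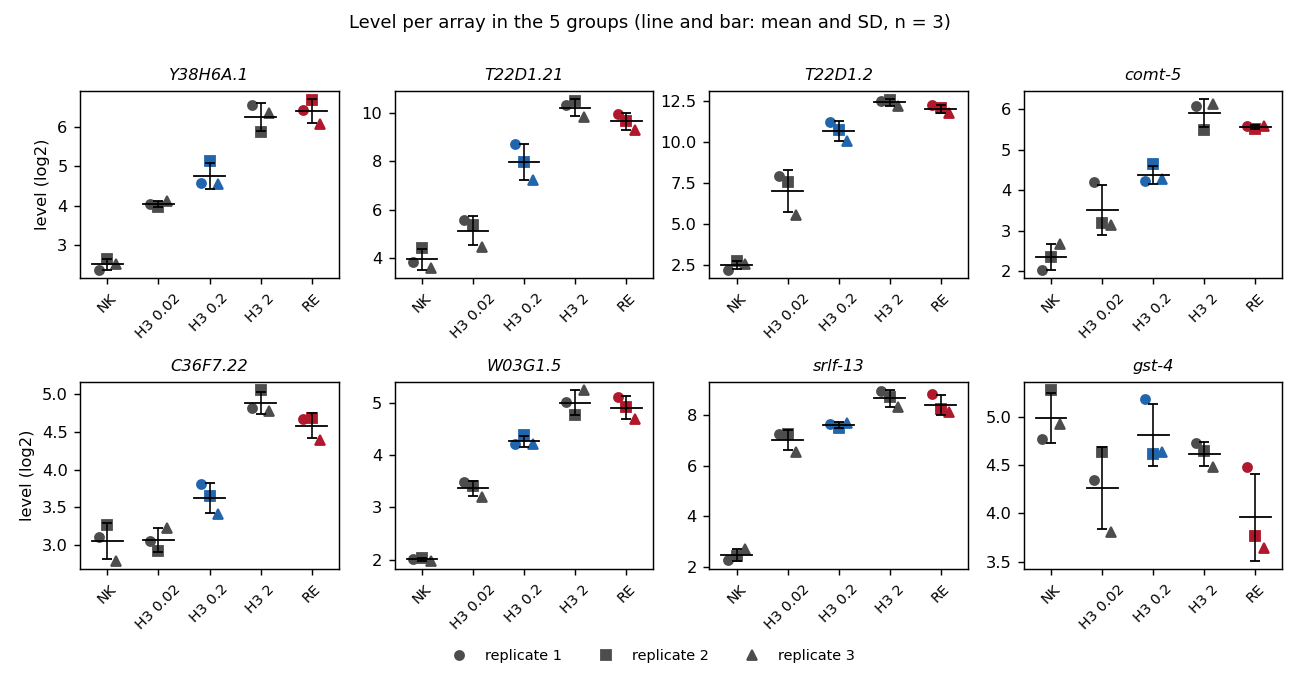
Level (log2, vertical axis) of 8 genes in each of the 15 arrays, by group, with RE in red and H3 0.2 in blue; symbols give the replicate number, and the line and bar give mean and SD (n = 3). In the first 7 genes the 3 RE arrays lie above the 3 H3 0.2 arrays, and in *gst-4* they lie below them.

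Most genes that the study named for their strong induction by procyanidins also had higher means with RE. The study chose them on these arrays, so that their direction against the control is no independent evidence. Of 13 such genes, 10 had a probe set of their own, and all 10 had the higher mean with RE, where 48.1% of all probe sets did. Among the 10, *T22D1.2*, *srlf-12*, *srlf-13* and *Y46H3D.8* are also graded genes counted above, so this is not a separate group. The median difference of the 10 was 0.36, with pair medians of 0.46, 0.26 and 0.30. The others, *hsp-16.1*, *hsp-16.11* and *hsp-16.48*, have shared probe sets, which went the other way (−0.37, −0.41 and −0.28, given below). For 3 of the 10 the unadjusted p was under 0.05 with RE higher (0.897% of all probe sets): *T22D1.2* and *srlf-13*, given above, and *K01A6.8*. *K01A6.8* stood at 8.25, 8.09 and 8.02 with RE and at 7.84, 7.82 and 7.89 with H3 0.2, a small difference of 0.27 (0.04 to 0.51) with no overlap of the groups.

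*clx-1*, named for a collagen-like sequence, differed by 0.85, but with an interval from −0.43 to 2.14 and overlapping groups. The metal-responsive *numr-1*, which reached 9.38 ± 0.37 with H3 2, was at 8.40 ± 0.44 with RE and 8.18 ± 0.48 with H3 0.2 (difference 0.22, −0.57 to 1.01). *C50F7.5*, at 13.16 with RE and 13.05 with H3 0.2, differed by 0.12 (−0.48 to 0.72), and *H12D21.6* by 0.37 (−0.13 to 0.88). Outside the list, *idpp-1* had 10.01, 10.37 and 10.30 with RE and 8.96, 9.63 and 9.50 with H3 0.2, a difference of 0.87 (−0.31 to 2.04) with groups that did not overlap. Its control arrays scattered widely (SD 1.32). *T05B4.13* differed by 1.32 (−0.03 to 2.67), with replicate 1 of RE at 6.65 and the other RE arrays at 4.15 and 4.49, and without that array it was 0.55.

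Over the wide response to H3 the median difference was close to 0. The probe sets called between H3 2 and NK were 195 that rose (0.665% of those tested) and 264 that fell (0.901%). The mean of neither group enters RE against H3 0.2, but the fit took its spread from all groups. Over the 195, the median of RE minus H3 0.2 was −0.07, with 42.1% above 0, and the medians of the 3 pairs were 0.08, −0.01 and −0.16. Of them, 11 had the higher mean with RE at an unadjusted p under 0.05 and 4 the lower, and the 3 arrays of each group were apart for 17 and 7 (2.36% and 3.12% of all probe sets). Over the 264, the median was −0.01, with 47.7% above 0 and pair medians of 0.04, 0.08 and −0.20, and 4 were higher and 5 lower at that p. The interval lay within a 2-fold difference for 68.2% of the first and 83.0% of the second list, against 83.2% of all probe sets.

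The strongest genes of both lists included some with close levels. *parg-2*, a poly(ADP-ribose) glycohydrolase gene and among the 10 largest rises with H3 2, stood at 8.94 ± 0.71 with RE and 9.05 ± 0.52 with H3 0.2, against 4.48 ± 0.03 in the control. The cathepsin-type peptidase gene *cpr-2* stood at 3.79 ± 0.24 and 3.78 ± 0.50, against 6.90 ± 0.56 in the control. The lysosomal lipase genes *lipl-1* and *lipl-3* differed by −0.26 (−1.08 to 0.56) and −0.04 (−1.18 to 1.1). Both intervals are wide. *lipl-3* was at 5.01 and 4.96 in replicate 1 of RE and H3 0.2, and at 6.47 to 6.67 in the other 4 arrays, so that these arrays separated by number rather than by treatment.

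Other genes that fell with H3 2 lay within narrower bounds. The antimicrobial saposin-like gene *spp-3* gave 6.73, 6.84 and 6.51 with RE and 6.51, 6.68 and 6.78 with H3 0.2, a difference of 0.03 (−0.34 to 0.40), and *spp-1* one of 0.32 (−0.09 to 0.74). The UDP-glucuronosyltransferase gene *ugt-44* differed by −0.05 (−0.53 to 0.43). For the flavin-containing monooxygenase gene *fmo-2* the difference was 0.40 (−0.08 to 0.88), and for the lysozyme gene *lys-4* it was 0.15 (−0.40 to 0.71). *lys-4* was at 6.10 with RE, 5.95 with H3 0.2 and 5.13 with H3 2 (RE minus H3 2 0.98, 0.42 to 1.53). The probe sets shared by *pud-1.1* and *pud-1.2*, which cannot be told apart, differed by 0.03 and 0.04, with intervals that reach past 1 either way (−1.11 to 1.17 and −1.1 to 1.17).

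**Figure D4:**
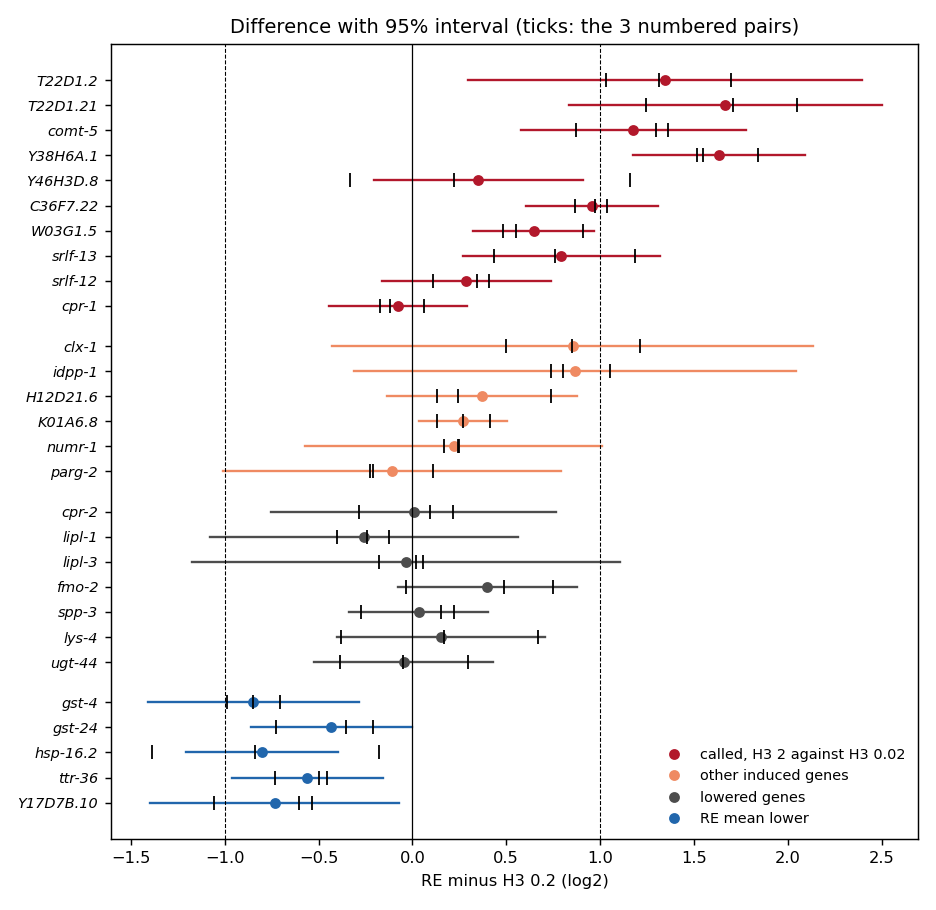
Difference RE minus H3 0.2 (log2, horizontal axis) of 28 genes in 4 groups, as the mean (point) with its 95% interval (line) and the values of the 3 numbered pairs (black ticks); dashed lines mark −1 and 1. The interval lies above 0 for 7 of the 9 graded genes that rose and includes 0 for each of the 7 lowered genes shown.

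Among the genes with the lower mean in RE was *gst-4*, a glutathione S-transferase gene widely used as a readout of oxidative stress signalling. It stood at 4.48, 3.77 and 3.64 with RE and 5.18, 4.61 and 4.63 with H3 0.2. The groups did not overlap, RE was lower in every pair (as for 13.1% of all probe sets), and the difference was −0.85 (−1.41 to −0.28, unadjusted p = 0.00653 and adjusted p = 1 from limma). The control stood at 4.99 ± 0.26, and H3 0.2 at 4.81 ± 0.32. The difference from NK was −1.02 for RE (adjusted p = 0.0916) and −0.18 for H3 0.2 (adjusted p = 0.91).

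*gst-24*, which was higher with both treatments than in the control (4.44), stood at 5.73 ± 0.39 with RE and 6.16 ± 0.25 with H3 0.2, with overlapping groups. *gst-12* was at 2.73 ± 0.07 and 3.31 ± 0.13, a difference of −0.58 (−0.90 to −0.26) at a level below the array medians. These 3 were the glutathione S-transferase genes with an unadjusted p under 0.05, out of 48 measured. All 3 were lower with RE, the median over the 48 was −0.10, and the background share for lower means at that p is 1.33%.

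The small heat shock protein genes were led by *hsp-16.2*, which stood at 2.26, 2.28 and 1.81 with RE and 3.11, 2.45 and 3.19 with H3 0.2. The difference was −0.80 (−1.21 to −0.40), with all 6 values below the array medians, and pair 2 differed by −0.18. The induced members of the family have shared probe sets. One of the 2 for *hsp-16.1* and *hsp-16.11* gave 8.66, 8.75 and 8.42 with RE and 8.95, 9.02 and 8.95 with H3 0.2, a difference of −0.37 (−0.74 to 0.01), and the other differed by −0.41 (−0.95 to 0.14). The 2 for *hsp-16.48* and *hsp-16.49*, which hold the same values, gave −0.28 (−0.72 to 0.17). In all of them, the groups were apart and lay far above the control means of 4.80, 4.95 and 4.30. The 12 family genes with a probe set of their own had a median of −0.17, with 3 of 12 above 0.

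Some other genes lay lower with RE. The 8 measured genes of the nematode-specific peptide family group E (*nspe*) had a median of −0.27 and were all below 0, and the 3 arrays of each group were apart for 2 of them (3.12% of all probe sets were apart in that direction, and 48.1% were above 0). *nspe-7* was at 6.48 ± 0.35 with RE and 6.98 ± 0.19 with H3 0.2 (−0.50, −1.16 to 0.16) and *nspe-3* at 1.26 and 1.70, a level well below the array medians (−0.44, −0.73 to −0.15). Of 7 genes that the study lists as passing against the control with RE alone, 5 had a probe set of their own. All 5 had the lower mean with RE, which the choice of these genes favours. The transthyretin-related gene *ttr-36* gave 5.11, 5.00 and 4.96 with RE and 5.57, 5.73 and 5.46 with H3 0.2 (−0.56, −0.96 to −0.16), and *Y17D7B.10* gave 3.24 ± 0.32 and 3.97 ± 0.56 (−0.73, −1.40 to −0.07).

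At levels below the array medians, a few genes stood apart from H3 0.2 without a matching rise with H3. *F55B11.5* was at 3.21 ± 0.10 with RE, 2.19 ± 0.47 with H3 0.2 and 3.03 ± 0.16 in the control. *M01B2.8* was at 2.66 ± 0.28 with RE and 1.92 ± 0.03 with H3 0.2, with a control mean of 2.08. The non-coding RNA gene *K02D3.4* was at 2.28 ± 0.12 with RE, 3.30 ± 0.27 with H3 0.2 and 2.67 ± 0.10 in the control (difference −1.01, −1.42 to −0.60). In the first and last of these, RE was the nearer to the control.

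Classes of detoxification genes had medians close to 0. The median difference was 0.00 for 74 cytochromes P450, with 0 higher and 2 lower at an unadjusted p under 0.05 (0.897% and 1.33% of all probe sets), both of them (*cyp-13A7* and *cyp-14A4*) below the array medians. It was 0.06 for 67 UDP-glucuronosyltransferases and 0.00 for 52 ABC transporters, in both with 0 at that p. In *ugt-3*, replicate 2 of RE alone was high (3.76, with the other RE arrays at 2.15 and 2.51). Among the transporters, *mrp-3* had a difference of 0.64 (−0.42 to 1.70) and *pgp-11*, a P-glycoprotein gene, one of 0.41 (−0.28 to 1.11). Of 276 nuclear hormone receptor genes, 7 were higher and 4 lower at that p, beside the same shares of 0.897% and 1.33% over all probe sets, with a median of −0.01, and the 6 genes listed as xenobiotic receptors had intervals within a 2-fold difference.

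Among the stress and innate immunity lists, most medians were within 0.10 of 0, and those of the small heat shock proteins (above), the hypoxia and hydrogen sulfide response and the CUB-like and *dod* genes were lower. The median was −0.05 for 23 genes of the oxidative stress and SKN-1 list, of which 6 were above 0, −0.12 for 8 of the hypoxia and hydrogen sulfide response, of which 2 were above 0, −0.03 for 12 of metal response and 0.02 for 11 of the unfolded protein response. It was −0.02 for 247 C-type lectins, 0.00 for 28 saposin-like proteins, 0.02 for 16 lysozymes, −0.06 for 63 antimicrobial peptides and −0.20 for 18 CUB-like and *dod* genes, of which 4 of 18 were above 0 and 0 had an unadjusted p under 0.05. Of the 42 lists of gene families, functions and tissue markers with 5 or more genes, which leave out the lists taken from the paper, 38 had a median within 0.10 of 0, and the medians ranged from −0.27 to 0.09. With 0 probe sets called in all, no list could hold a called gene.

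**Figure D5:**
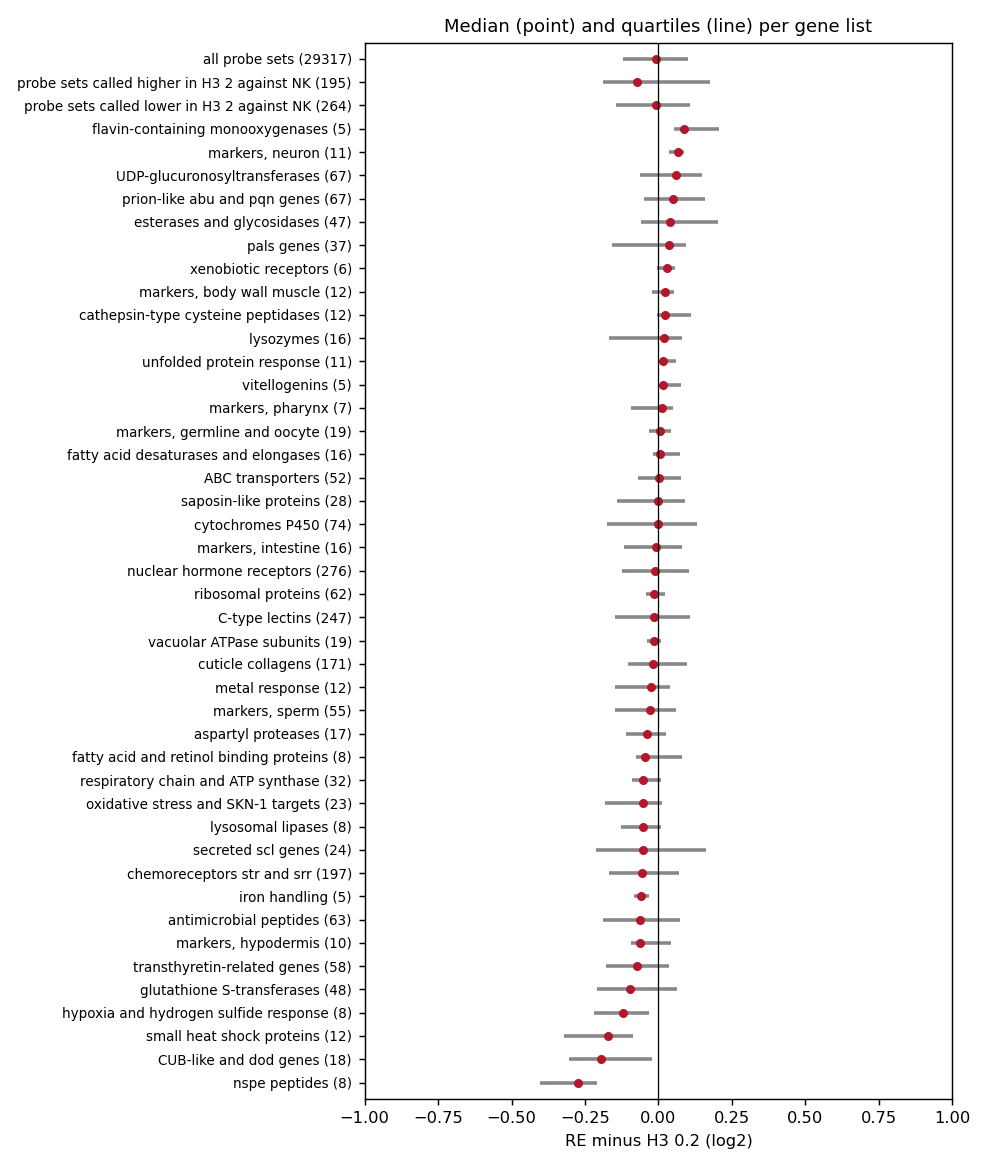
Median (point) and quartiles (line) of RE minus H3 0.2 (log2, horizontal axis) over all probe sets, over the probe sets called for H3 2 against the control and over 42 lists of gene families, functions and tissue markers (number of genes in brackets; lists taken from the paper are not drawn). The medians of these 42 lie between −0.27 and 0.09.

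Genes of the basic machinery had narrow intervals. The intervals of all 62 ribosomal protein genes and of all 32 respiratory chain and ATP synthase genes lay within a 2-fold difference, with medians of −0.01 and −0.05. Cuticle collagens had wider intervals in the fit without a block: the median of 171 was −0.02, but only 38.6% of the intervals lay within a 2-fold difference. Markers of the tissues of a whole worm were present, with median levels from 4.94 (sperm) to 10.2 (body wall muscle). Their median differences were −0.01 for 16 intestine, 0.01 for 19 germline and oocyte, −0.03 for 55 sperm, 0.02 for 12 body wall muscle, 0.01 for 7 pharynx, 0.07 for 11 neuron and −0.06 for 10 hypodermis genes. For sperm and germline markers 34.5% and 42.1% of the intervals lay within a 2-fold difference, and their part in the other results was not tested. The intervals of all these lists come from the fit without a block, in which differences between the array sets count as spread. Over all probe sets, the array set as a block lowered the share reaching past 1 from 16.8% to 4.65%. The lists were not counted with a block. In RNA of whole worms, fewer cells of a type and less RNA per cell cannot be told apart.

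Set against H3 2, the concentration that the treatment field gives for RE, the crude extract also had 0 called probe sets (0%, limma), with 944 at an unadjusted p under 0.05. With the array set as a block, 1590 probe sets had such a p, and the smallest adjusted p was 0.621. Over the 195 probe sets that rose with H3 2, RE was nearer to H3 2 than to H3 0.2 for 64, and over the 264 that fell for 77, where it was for 11456 of all 29317. The H3 2 arrays chose these lists, so that their levels there are the more extreme by choice.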

How the data were processed

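The deposited log2 levels (29317 probe sets, 15 arrays) were made by the authors from the scans with RMA and quantile normalisation (Expression Console and Partek; versions not given in the sources used here). They were used as deposited. Probe sets were named through the platform annotation and RefSeq (assembly WBcel235): 25551 have 1 gene, 646 several and 3120 none, and 5 of those with 1 gene took their name from the study's supplementary annotation. limma 3.58.1 in R 4.3.3 was fitted with 1 mean per group over the 15 arrays, followed by eBayes, with Benjamini-Hochberg adjustment over all probe sets. A call needed an adjusted p of at most 0.05 and a log2 difference of at least 1. The number of arrays limits the precision. The script was tested on simulated arrays with independent noise, which held no array sets and no pairing.

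Same-numbered RE and H3 0.2 arrays deviated together (residual correlations 0.77, 0.58 and 0.45). Both groups hold the same numbers in each array set, so the set alone raises these values. Within set B, RE and H3 0.2 arrays of the same number lay 0.33 to 0.35 apart (root mean square difference), and those of other numbers 0.40. By that distance the numbers pair them. Fits with the replicate number as a block, over the 15 arrays or on the 6 compared, changed no call.

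Members and gene lists were chosen with earlier results of these data known. H3 2 against H3 0.02 was added after the data had been seen. Each gene of a list took its single-gene probe set with the highest mean. Genes named are single-gene probe sets with the 10 smallest p-values in each direction, the 10 largest differences in each direction among groups that do not overlap, the 10 largest rises and falls with H3 2, genes the study names and up to 4 members per list by the size of t. *srlf-14* and *parg-2* come from the H3 2 rises. *cpr-1* and the shared probe sets were added after their values were seen. *T22D1.21* was then taken off the list of genes the study names, whose text does not name it. Python 3.11.15 with pandas 2.3.3 and matplotlib 3.10.9 served annotation and plots.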

Additional observations from a re-analysis of the deposited data

How the results depend on the processing

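The count of probe sets called between RE and H3 0.2 stayed at 0 under each alternative run: only the 6 arrays, the intensity trend, the methods' test, no fold threshold, arrays centred on their medians, a filter on low values, the array set as a block and each replicate left out. Unadjusted p-values under 0.05 numbered 120 (after the filter) to 1408, and the smallest adjusted p was 0.0699 (limma, without H3 0.2 replicate 2). With the replicate number as a block, which pairs the arrays, 802 had such a p and the smallest adjusted p was 0.206, so the pairing changed no call. RE against H3 2 also stayed at 0, with 1881 such p-values under the block and a smallest adjusted p of 0.107, reached without H3 2 replicate 3. The number of intervals within a 2-fold difference was 26449 with the block, 28397 (96.9%) with the block on the 6 arrays and 27953 with the array set as a block. It was 11651 (73.1%) with the filter on low values, which tests fewer probe sets, and 20639 to 22472 when replicates were left out. Leaving out replicates moved the median over the probe sets raised by H3 2 between −0.17 and 0.04 and over those lowered between −0.08 and 0.09, so neither has a settled sign.

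With 0 calls under every alternative, no named gene could be called. Of the 43 named genes with a probe set of their own, 34 kept their direction throughout. The other 9 changed sign only when replicates were left out. Their differences then ranged from −0.16 to 0.033 for *cpr-1*, −0.19 to 0.29 for *cpr-2*, −0.60 to 0.48 for *lipl-3*, −0.51 to 0.19 for *parg-2* and −0.060 to 0.19 for *spp-3*. They ranged from −0.22 to 0.12 for *ugt-44*, −0.105 to 0.42 for *lys-4*, −0.030 to 0.50 for *numr-1* and −0.054 to 0.69 for *Y46H3D.8*, and the cause was not tested. For the graded genes, the median of RE minus H3 2 moved from −0.30 to −0.15 with the array set as a block, an alternative chosen after seeing the data. With 3 arrays a group, differences under 2-fold were often not resolved, and signal over background could not be read from the RMA values.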
